A study of Homo sapiens with 9 samples.

Results

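The genes described here encode 9 ligands of the transforming growth factor beta superfamily and follistatin, a secreted protein that binds activins and blocks them. The 9 ligands are the TGF-beta isoforms (TGFB1, TGFB2, TGFB3), the activin subunits (INHBA, INHBB), growth differentiation factor 15 (GDF15) and the bone morphogenetic proteins BMP2, BMP4 and BMP6, and follistatin is FST. They were picked by gene symbol from a fixed list, not by a threshold on their values, and all 10 were among the 26196 gene symbols measured. The list was chosen with earlier results of these data known. RNA was sequenced from HCA2, a line of human foreskin fibroblasts grown in DMEM with 10% serum, in 9 libraries. Senescent cells were sorted into a PD-L1-positive group of 3 libraries and a PD-L1-negative group of 3, and a normal group of 3 libraries was labelled proliferative. Per the labels' protocols, senescence was brought about with the DNA-damaging drug doxorubicin at 100 nM for 24 hours, and the cells then stayed in 100 nM BI-2536, which blocks the mitotic kinase PLK1, for 12 days in all. The normal libraries carry the same protocol text and are labelled PD-L1 positive, and it is not stated whether normal cells were sorted or received a vehicle. The design asks which genes differ between sorted PD-L1-positive and PD-L1-negative senescent cells, PD-L1 being a membrane protein that restrains T cells through PD-1. All libraries come from 1 cell line, and it is not stated whether the replicates were separate cultures, so p-values measure the spread between these libraries, which may be technical.

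TGF-beta isoforms are secreted in a latent complex with their own propeptide and a latent TGF-beta binding protein, and must be released before they can bind the receptors TGFBR2 and TGFBR1, which phosphorylate SMAD2 and SMAD3. Activins, dimers of INHBA or INHBB products, use ACVR2A, ACVR2B and ACVR1B and the same SMADs, whereas BMPs signal through SMAD1, SMAD5 and SMAD9. GDF15 is a distant member of the family whose receptor, GFRAL with RET, is known from the hindbrain, and it is a stress-responsive factor often measured among the secreted products of senescent cells.

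Of the 10 genes, GDF15 rose and TGFB1 fell in senescent cells relative to normal cells, and none differed between the sorted fractions past the threshold. Sequences just upstream of these 2 genes, both on chromosome 19, are shown because theirs were the levels that passed the test. Each is the 250 bases before the gene's start in the RefSeq annotation of build GRCh38.p14, written 5′ to 3′ along the gene's strand. The GDF15 window is chr19:18385908-18386157 on the plus strand and the TGFB1 window chr19:41353923-41354172 on the minus strand. Capitals mark TATAAA, the core of a TATA box, and GGGCGG, the core of a GC box, on either strand, where a GC box on the other strand reads CCGCCC.
GDF15: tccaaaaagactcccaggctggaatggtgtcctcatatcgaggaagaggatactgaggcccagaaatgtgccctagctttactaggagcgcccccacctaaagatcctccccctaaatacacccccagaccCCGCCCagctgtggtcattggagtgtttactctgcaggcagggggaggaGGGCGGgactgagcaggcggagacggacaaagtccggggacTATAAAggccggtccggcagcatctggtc
TGFB1: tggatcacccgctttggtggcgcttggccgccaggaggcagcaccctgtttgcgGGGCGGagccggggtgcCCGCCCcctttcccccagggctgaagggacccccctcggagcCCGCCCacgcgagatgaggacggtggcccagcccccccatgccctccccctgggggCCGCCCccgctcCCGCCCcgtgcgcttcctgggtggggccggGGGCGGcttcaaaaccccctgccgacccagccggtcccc
The GDF15 window held 1 TATAAA and 2 GC boxes at 58.4% G and C, and the TGFB1 window held 6 GC boxes and no TATAAA at 76.8%. TATAAA occurred in 10.7% and GGGCGG in 42.6% of 35116 windows of this length in the same annotation, counting both strands, and a match is a run of letters, not a measured binding site. These windows matched 9 of the 10 genes, with 12 windows in all. TATAAA also occurred in windows of TGFB2, INHBA and TGFB3, and the INHBB window held 10 GC boxes. The levels of these other genes did not pass the test. A link between these motifs and the levels was not tested.

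Levels are given in FPKM, fragments per kilobase of transcript relative to the depth of the library, with a gene's transcripts summed. Depth, estimated from the smallest steps between low values, was 11600000 to 17800000 fragments per library. Dermal fibroblast markers were abundant, with all 14 at a mean FPKM of 1 or more and medians of 649 FPKM in PD-L1-positive, 652 in PD-L1-negative and 325 in normal cells, and the medians of leukocyte, endothelial, melanocyte and keratinocyte markers were at most 0.0996 FPKM in any group. Over all 9 libraries, 1 of 9 leukocyte markers (CD68) had a mean of 1 or more. So did 2 of 7 melanocyte markers (MITF and PMEL) and 1 of 8 keratinocyte markers (KRT10). No endothelial marker did, with TEK at 1.08 FPKM in normal cells and 0.519 in each senescent group. CD68 averaged 62.2 FPKM in PD-L1-positive, 58.1 in PD-L1-negative and 33.1 in normal cells. Pericyte and smooth muscle markers, several of which cultured fibroblasts also express, had medians of 3.83 FPKM in PD-L1-positive, 3.53 in PD-L1-negative and 3.73 in normal cells, with 6 of 8 at a mean of 1 or more. CD274, which encodes PD-L1, averaged 1.31 ± 0.0738 FPKM in PD-L1-positive, 0.765 ± 0.126 in PD-L1-negative and 4.2 ± 1.78 in normal cells (SD, n = 3 each), so the normal group had the most. Between the sorted fractions its log2 difference was 0.52 (unadjusted p = 0.0479 in the limma fit described below). That difference did not pass the adjustment over all genes. MKI67, whose product is found in dividing cells, stood at 4.65, 4.49 and 6.09 FPKM in PD-L1-positive and 3.97, 1.64 and 4.02 in PD-L1-negative cells, against 61.3, 33.4 and 12.7 in normal replicates 1, 2 and 3, which thus differed widely from one another.

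FST and GDF15 were the most abundant of the 10 transcripts in senescent cells, followed by TGFB1 and INHBA. In PD-L1-positive cells the means ran from FST at 108 FPKM through GDF15 at 90.6, TGFB1 at 71.2, INHBA at 23.0, BMP4 at 5.0, INHBB at 2.47, TGFB3 at 1.90, TGFB2 at 0.967 and BMP2 at 0.525 to BMP6 at 0.0739. The ranges of FST and GDF15 overlapped there, as did those of BMP2 and TGFB2, of TGFB2 and TGFB3, and of TGFB3 and INHBB, so these neighbours in the order are not separated by their spread. In normal cells the order began with FST at 95.9 FPKM, TGFB1 at 88.7, INHBA at 26.9 and GDF15 at 20.3, and the ranges overlapped between FST and TGFB1 and between INHBA and GDF15. GDF15 supplied 46.2% ± 0.598 of the summed FPKM of the 9 ligands in PD-L1-positive cells and 45.9% ± 1.37 in PD-L1-negative cells, against 13.1% ± 7.13 in normal cells (SD, n = 3 each).

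**Figure D1:**
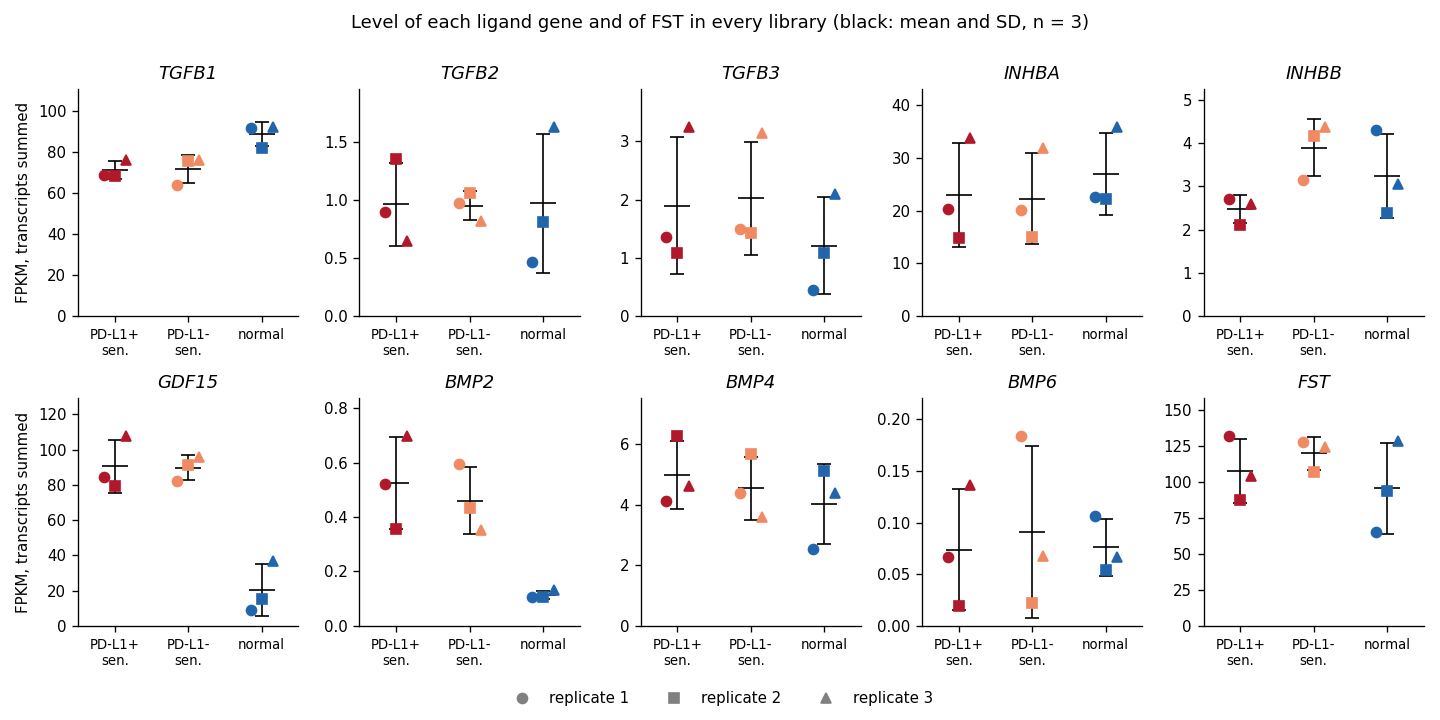
FPKM (vertical axes, linear from 0, a scale per gene) of the 10 genes in each library of PD-L1-positive senescent, PD-L1-negative senescent and normal cells. Symbols are replicates and black bars the mean and SD of 3 libraries. All 6 senescent libraries lie above the 3 normal ones for GDF15 and BMP2, and below them for TGFB1, and the other genes overlap.

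GDF15 had the clearest difference of the 10. It stood at 84.7, 79.5 and 108 FPKM in PD-L1-positive cells and 82.1, 91.4 and 95.8 in PD-L1-negative cells, against 8.83, 15.3 and 36.7 in normal cells. Every senescent library was above every normal one, as for 21.5% of all tested genes, and the 2 senescent groups overlapped. Means were 90.6 ± 14.9, 89.8 ± 7.04 and 20.3 ± 14.6 FPKM in PD-L1-positive, PD-L1-negative and normal cells (SD, n = 3 each), and over all 6 senescent libraries the mean was 4.45 times that of normal cells. Differences were tested with limma on log2(FPKM + 0.5) over the 12763 genes whose mean FPKM reached 0.5, and called at a Benjamini-Hochberg adjusted p under 0.05. On that scale, the log2 difference was 2.36 (SE 0.40, adjusted p = 0.00151) for PD-L1-positive minus normal, 2.35 (SE 0.40, adjusted p = 0.00146) for PD-L1-negative minus normal and 2.35 (SE 0.34, adjusted p = 0.000493) for both senescent groups minus normal. Whether a difference in bulk RNA reflects the number of cells that hold a transcript or the amount in each cannot be told apart.

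GDF15 passed the threshold in each of the 23 alternatives tried for every contrast with normal cells. Without normal replicate 3, its highest normal library, the difference of both senescent groups from normal was 2.89, and without normal replicate 1 it was 1.90. Within the normal group GDF15 was highest in the library with the least MKI67 and the most CDKN1A, the gene of the cell cycle inhibitor p21. CDKN1A stood at 505, 498 and 524 FPKM in PD-L1-positive and 542, 686 and 579 in PD-L1-negative cells, against 110, 214 and 311 in normal replicates 1, 2 and 3. The part of proliferation in the GDF15 difference was not tested.

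**Figure D2:**
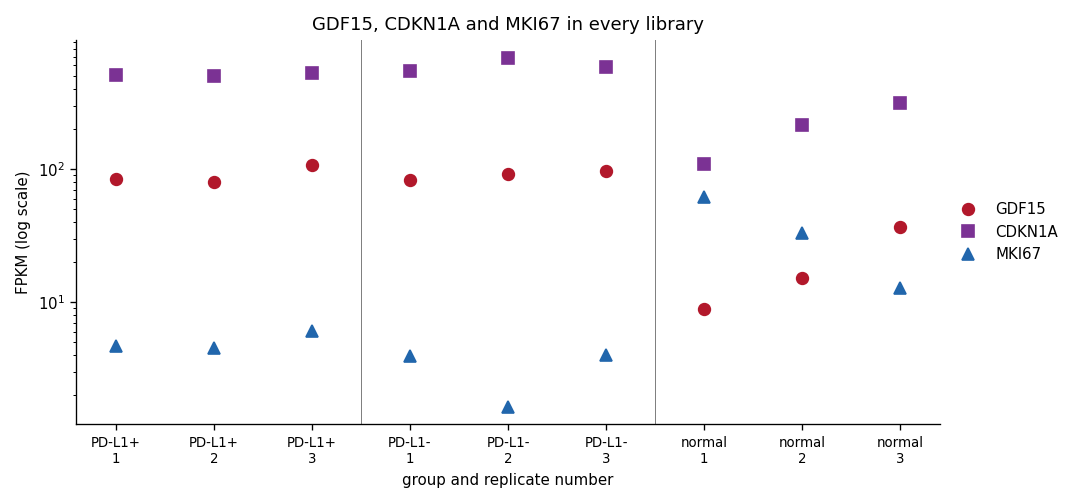
FPKM on a log axis of GDF15 (circles), CDKN1A (squares) and MKI67 (triangles) in each of the 9 libraries, by group and replicate number, where PD-L1+ and PD-L1- are the sorted senescent groups. GDF15 lies between 79.5 and 108 in the 6 senescent libraries and between 8.83 and 36.7 in the normal ones, where its order is that of CDKN1A and the reverse of that of MKI67.

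The genes whose levels followed GDF15 most closely over the 9 libraries were ICAM1, an adhesion molecule for leukocytes, RHOQ, a small GTPase, and CASP9, the initiator caspase of the mitochondrial death pathway. Pearson's r of log2(FPKM + 0.5) was 0.995 for each, as a description, since the 9 libraries fall into groups and 1274 tested genes had an r above 0.9. ICAM1 averaged 75.4 FPKM in PD-L1-positive, 71.6 in PD-L1-negative and 18.1 in normal cells. The GDF15 receptor was near the floor, with GFRAL at 0.0125 FPKM in PD-L1-positive, 0.0124 in PD-L1-negative and listed at 0 in normal cells. RET averaged 0.165 FPKM in PD-L1-positive, 0.0909 in PD-L1-negative and 0.0795 in normal cells, and both genes were under the minimum for testing.

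TGFB1, the main TGF-beta isoform in these cells, fell by a smaller amount. Its level was 68.9, 68.5 and 76.1 FPKM in PD-L1-positive cells and 64.0, 75.5 and 76.1 in PD-L1-negative cells, against 91.6, 82.0 and 92.4 in normal cells. No senescent library reached the lowest normal one, as for 27.3% of all tested genes, and the senescent groups overlapped. The senescent mean of 71.5 ± 5.12 FPKM (SD, n = 6) was 0.807 times the normal mean of 88.7 ± 5.82 (SD, n = 3). In limma's fit the log2 difference was −0.31 (SE 0.08, adjusted p = 0.0124) for both senescent groups minus normal, and this call held in each of 23 alternatives. The contrasts of single fractions rested on fewer libraries and were less firm, at −0.31 (adjusted p = 0.0255) for PD-L1-positive and −0.30 (adjusted p = 0.0293) for PD-L1-negative cells. For PD-L1-positive cells the call was lost without PD-L1-positive replicate 1 (adjusted p = 0.0825) or 2 (0.0831), or without normal replicate 1 (0.0629) or 3 (0.0513). For PD-L1-negative cells it was lost without PD-L1-negative replicate 1, where the difference was −0.22 (adjusted p = 0.115), or without normal replicate 1 (0.0714) or 3 (0.0591). The adjusted p over the 23 alternatives was 0.00339 to 0.0831 for PD-L1-positive and 0.00423 to 0.115 for PD-L1-negative cells.

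TGFB2 and TGFB3, the other two isoforms, were scarce beside TGFB1, which made up 96.2% ± 0.910 of their summed FPKM in PD-L1-positive, 96.1% ± 0.894 in PD-L1-negative and 97.6% ± 1.45 in normal cells (SD, n = 3 each). TGFB2 was 0.901, 1.35 and 0.647 FPKM in PD-L1-positive cells and 0.977, 1.06 and 0.819 in PD-L1-negative cells, against 0.471, 0.816 and 1.64 in normal cells. The normal libraries spanned the senescent ones, and the log2 difference of both senescent groups from normal was 0.05 (95% interval −0.50 to 0.60, limma adjusted p = 0.883). TGFB3 was 1.36, 1.09 and 3.25 FPKM in PD-L1-positive cells and 1.5, 1.43 and 3.13 in PD-L1-negative cells, against 0.444, 1.08 and 2.10 in normal cells. Replicate 3 was the highest library of each group, and the difference of 0.56 (95% interval −0.28 to 1.40, limma adjusted p = 0.233) did not pass. With 1 library left out it lay between 0.19, without normal replicate 1, and 0.92, without normal replicate 3, and passed in neither.

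INHBA, whose product forms activin A, was well expressed and overlapped between all groups. It stood at 20.3, 14.8 and 33.8 FPKM in PD-L1-positive cells and 20.2, 14.9 and 31.8 in PD-L1-negative cells, against 22.6, 22.2 and 35.9 in normal cells. As with TGFB3, replicate 3 was the highest of each group, and the log2 difference of both senescent groups from normal was −0.28 (95% interval −0.94 to 0.38, limma adjusted p = 0.445). With 1 library left out it lay between −0.44, without PD-L1-positive replicate 3, and −0.058, without normal replicate 3. The libraries keep the strand, but whether counting used it is not stated, and INHBA-AS1, an antisense gene, was at most 0.118 FPKM in any library.

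INHBB, which forms activin B, was the one gene of the 10 whose sorted fractions did not overlap. Its level was 2.71, 2.10 and 2.60 FPKM in PD-L1-positive cells, against 3.14, 4.16 and 4.38 in PD-L1-negative cells, and 4.30, 2.39 and 3.05 in normal cells. All 3 PD-L1-positive libraries were below all 3 PD-L1-negative ones, and normal cells overlapped both. The log2 difference of PD-L1-positive minus PD-L1-negative was −0.56 (95% interval −1.0 to −0.11, unadjusted p = 0.0192), which did not pass limma's adjustment over all genes (adjusted p = 1). Of all genes tested, 9.42% had fractions that did not overlap, 4.8% with PD-L1-positive cells lower, and 1.74% had an unadjusted p under 0.05, so 1 of 8 without overlap is near the background.

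FST, which binds activins almost irreversibly and some BMPs less tightly, was the most abundant of the 10. It was 132, 87.9 and 104 FPKM in PD-L1-positive cells and 128, 107 and 125 in PD-L1-negative cells, against 65.4, 93.7 and 129 in normal cells. The groups overlapped, and normal replicate 3 was among the highest of the 9 libraries. The log2 difference of both senescent groups from normal was 0.29 (95% interval −0.16 to 0.73, limma adjusted p = 0.248). Without normal replicate 3 it was 0.52 (adjusted p = 0.0302), and the difference of PD-L1-negative cells from normal was then 0.61 (adjusted p = 0.0285), both past the threshold. Over the 23 alternatives the adjusted p ranged from 0.0302 to 0.868 and from 0.0285 to 0.633 in these contrasts. Most of the FST signal was in the transcript NM_013409, with 92.8% ± 1.29 in PD-L1-positive, 93.6% ± 0.397 in PD-L1-negative and 91.4% ± 1.04 in normal cells (SD, n = 3 each). FST exceeded INHBA in every library, with a ratio of FPKM of 5.17 ± 1.83 in PD-L1-positive, 5.82 ± 1.70 in PD-L1-negative and 3.57 ± 0.661 in normal cells (SD, n = 3 each), and these ranges overlapped.

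BMP4 was the most abundant of the 3 BMP genes, and BMP2 and BMP6 were under the minimum for testing. BMP4 stood at 4.11, 6.26 and 4.63 FPKM in PD-L1-positive cells and 4.38, 5.67 and 3.58 in PD-L1-negative cells, against 2.55, 5.12 and 4.39 in normal cells. The groups overlapped, with a log2 difference of both senescent groups from normal of 0.25 (95% interval −0.24 to 0.73, limma adjusted p = 0.357). Reads of BMP4 were divided among 3 transcripts with large swings between libraries, so the sum is given and its transcripts are not compared.

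BMP2 was low but did not overlap between senescent and normal cells, as for 21.5% of all tested genes with senescent cells higher. It was 0.522, 0.356 and 0.696 FPKM in PD-L1-positive cells and 0.594, 0.432 and 0.353 in PD-L1-negative cells, against 0.105, 0.107 and 0.131 in normal cells. These values stand for an estimated 21 to 29 fragments per library in PD-L1-positive, 18 to 26 in PD-L1-negative and 7 in normal cells, so counting error is large. When limma was fitted to all 20250 genes above 0, the log2 difference of both senescent groups from normal was 0.68 (SE 0.12, adjusted p = 0.00254), a fit in which 16.8% of genes were called higher, and the pseudocount understates a difference at this level. Its mean over the senescent libraries was 4.30 times the normal mean. BMP6 was 0.0664, 0.0192 and 0.136 FPKM in PD-L1-positive cells and 0.184, 0.0221 and 0.0675 in PD-L1-negative cells, against 0.107, 0.0546 and 0.0667 in normal cells. That is an estimated 1 to 6 fragments per library, at which no difference was detectable.

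Read over the 10 genes, 8 were tested, of which 1 was higher and 1 lower in each contrast with normal cells. These 2 calls of 8 stand beside 53.8% of all tested genes called for both senescent groups minus normal, 47.5% for PD-L1-positive minus normal and 47.5% for PD-L1-negative minus normal. Of all tested genes, 23.9% were called higher and 29.9% lower in both senescent groups, 21.1% higher and 26.3% lower in PD-L1-positive cells, and 21% higher and 26.6% lower in PD-L1-negative cells, relative to normal cells. The share of the 8 that moved is thus not above the background. The median log2 difference of the 8 was 0.15 for both senescent groups minus normal, beside −0.04 over all genes. PD-L1-positive and PD-L1-negative cells differed in 0 of 8 by the adjusted p, beside 0% of 12763 genes, of which 222 had an unadjusted p under 0.05, and other settings of limma called 0 to 3 genes. GDF15 differed by 0.00 between them (95% interval −0.89 to 0.90) and TGFB1 by −0.01 (95% interval −0.23 to 0.21), so the interval for GDF15 still allows a difference of nearly 1 on the log2 scale. The contrasts with normal cells share the same 3 normal libraries.

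**Figure D3:**
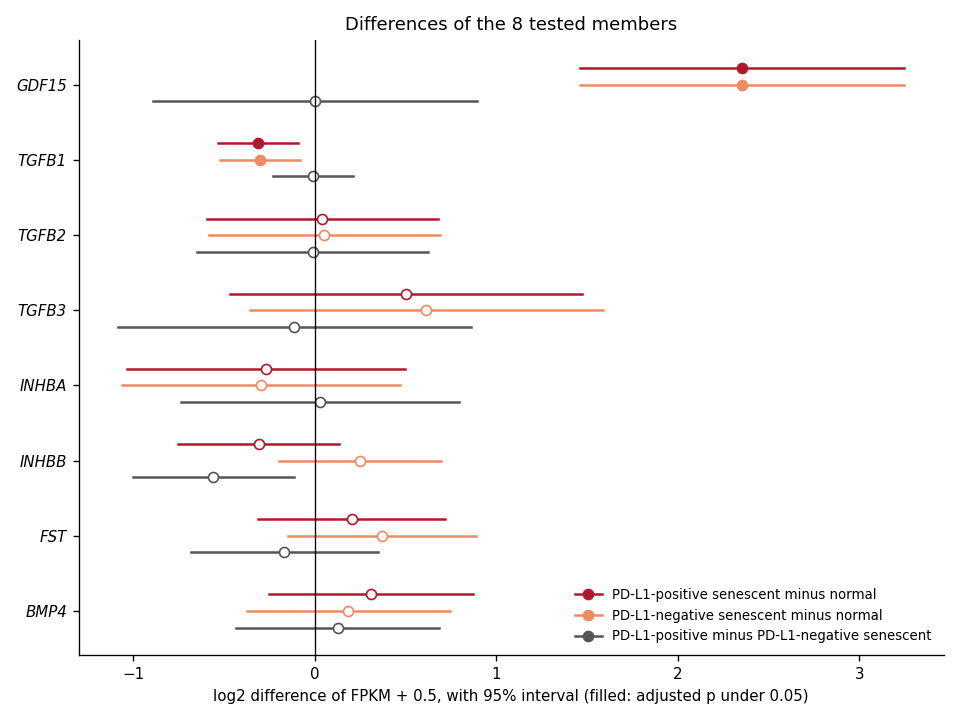
Log2 difference of FPKM + 0.5 (horizontal axis) with its 95% interval for the 8 tested genes, for PD-L1-positive minus normal, PD-L1-negative minus normal, and PD-L1-positive minus PD-L1-negative cells, top to bottom for each gene. Filled points have an adjusted p under 0.05: GDF15 at 2.36 and 2.35, and TGFB1 at −0.31 and −0.30.

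The remaining genes of the pathway were counted in lists, for both senescent groups minus normal, and some genes, such as NOG and SMAD9, stand in more than 1 list. In this contrast 23.9% of all 12763 tested genes were called higher and 29.9% lower, with a median of −0.04. The lists were not tested against these shares. Of 24 other ligands of the superfamily, 23 were in the table, 19 of them under the minimum and 5 of these at 0 in every library. Among the 4 tested, 2 rose. GDF5, a ligand of joint and cartilage formation, was 4.22, 4.03 and 5.17 FPKM in PD-L1-positive and 5.26, 6.61 and 6.85 in PD-L1-negative cells, against 0.413, 0.768 and 0.697 in normal cells, a log2 difference of 2.37 (SE 0.14, limma adjusted p = 8.88e-06). GDF11, a close relative of myostatin, was 11.9, 16.6 and 12.6 FPKM in PD-L1-positive and 15, 14.8 and 11.2 in PD-L1-negative cells, against 4.2, 5.63 and 5.29 in normal cells, a difference of 1.35 (SE 0.14, limma adjusted p = 0.000105). Senescent and normal libraries did not overlap for either gene, as for 21.5% of all tested genes with senescent cells higher.

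Receptors rose or did not pass, with 6 of 13 tested higher and 0 lower and a median log2 difference of 0.20. The shares over all tested genes were 23.9% higher and 29.9% lower. TGFBR2, the receptor that binds TGF-beta first, averaged 89.9 ± 5.91 FPKM in PD-L1-positive and 93.7 ± 1.07 in PD-L1-negative cells, against 41.7 ± 5.95 in normal cells (SD, n = 3 each), a log2 difference of 1.14 (limma adjusted p = 3.20e-05). The co-receptors NEO1, which binds repulsive guidance molecules, and TGFBR3, betaglycan, which presents TGFB2, rose by 1.00 and 0.96 (limma adjusted p = 0.000194 and 0.000206). TGFBR1, the signalling partner of TGFBR2, rose by 0.41 (limma adjusted p = 0.0228), and without normal replicate 2 the difference was 0.25 (adjusted p = 0.102), in a range of adjusted p over the 23 alternatives of 0.00376 to 0.131. The other 2 that rose, named after their values were seen, were ACVR1B, the type I receptor of activins, by 0.35 (limma adjusted p = 0.0306), and ENG, endoglin, a co-receptor, by 0.20 (limma adjusted p = 0.0428). Of the remaining receptors, also named with values seen, the activin receptor ACVR2A stood at 0.31 (limma adjusted p = 0.0659), and ACVR1, BMPR1A and BMPR2, through which BMPs signal, at 0.07, −0.02 and −0.18, none past the threshold.

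Of 18 tested SMADs and their regulators, 5 were higher and 5 lower, with a median of −0.02. Over all tested genes the shares were 23.9% higher and 29.9% lower. SMAD3, a transducer of TGF-beta and activin signals, averaged 56.3 ± 6.18 FPKM in PD-L1-positive and 51.3 ± 5.38 in PD-L1-negative cells, against 31.7 ± 7.98 in normal cells (SD, n = 3 each), a log2 difference of 0.78 (limma adjusted p = 0.00258). ZFYVE9, the anchor protein SARA that brings SMAD2 and SMAD3 to the receptor, rose by 0.52 (limma adjusted p = 0.000685). SMURF2, a ubiquitin ligase of the pathway, rose by 0.72 (limma adjusted p = 0.0172), which did not pass without normal replicate 2 (adjusted p = 0.0704) or 3 (0.0648), in a range of 0.00171 to 0.0860 over the alternatives. TGIF1, a corepressor, rose by 0.63 close to the threshold (limma adjusted p = 0.0447) and lost its call in 13 of 23 alternatives. The other that rose, named after its value was seen, was PPM1A, by 0.24 (limma adjusted p = 0.0212). The 5 that fell, named after their values were seen, were TGIF2 (−0.51), the BMP transducers SMAD9 (−0.43) and SMAD1 (−0.25), STRAP, a TGF-beta receptor-associated protein (−0.28), and the common partner SMAD4 (−0.26).

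Secreted antagonists had 6 of 10 tested higher, 2 lower and a median of 0.43. Beside these counts, 23.9% of all tested genes were called higher and 29.9% lower. CHRDL1, a chordin-like binder of BMPs, averaged 20.8 ± 3.63 FPKM in PD-L1-positive and 26.6 ± 4.87 in PD-L1-negative cells, against 4.44 ± 0.953 in normal cells (SD, n = 3 each), a log2 difference of 2.28 (limma adjusted p = 2.01e-05). DCN, decorin, a matrix proteoglycan that binds TGF-beta, rose by 1.90 (limma adjusted p = 0.000258), and NBL1, a DAN family antagonist of BMPs, by 1.69 (limma adjusted p = 1.77e-05). NOG, noggin, a BMP antagonist, fell by 1.08 on the log2 scale (limma adjusted p = 0.00206), at 2.24, 1.41 and 1.83 FPKM in PD-L1-positive and 1.31, 1.92 and 1.2 in PD-L1-negative cells, against 5.69, 3.68 and 2.94 in normal cells. The other that fell, named after its value was seen, was FSTL3, which like FST binds activins, with a log2 difference of −1.06 (limma adjusted p = 0.00330).

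Genes of latent TGF-beta storage and activation had 8 of 17 tested higher, 0 lower and a median of 0.42. Over all tested genes 23.9% were higher and 29.9% lower. LTBP3 and LTBP1, binding proteins that tether latent TGF-beta to the matrix, rose by 1.73 and 0.92 (limma adjusted p = 3.17e-05 and 5.08e-05). LTBP1 averaged 77.3 ± 8.03 FPKM in PD-L1-positive and 74.0 ± 5.32 in PD-L1-negative cells, against 39.8 ± 1.04 in normal cells (SD, n = 3 each). LRRC32, the protein GARP that holds latent TGF-beta on the cell surface, rose by 1.68 (limma adjusted p = 0.00595), at 8.54, 6.09 and 9.89 FPKM in PD-L1-positive and 7.40, 5.96 and 10.3 in PD-L1-negative cells, against 0.90, 1.60 and 5.49 in normal cells. PCSK5, a proprotein convertase, rose by 1.45 (limma adjusted p = 8.97e-05).

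**Figure D4:**
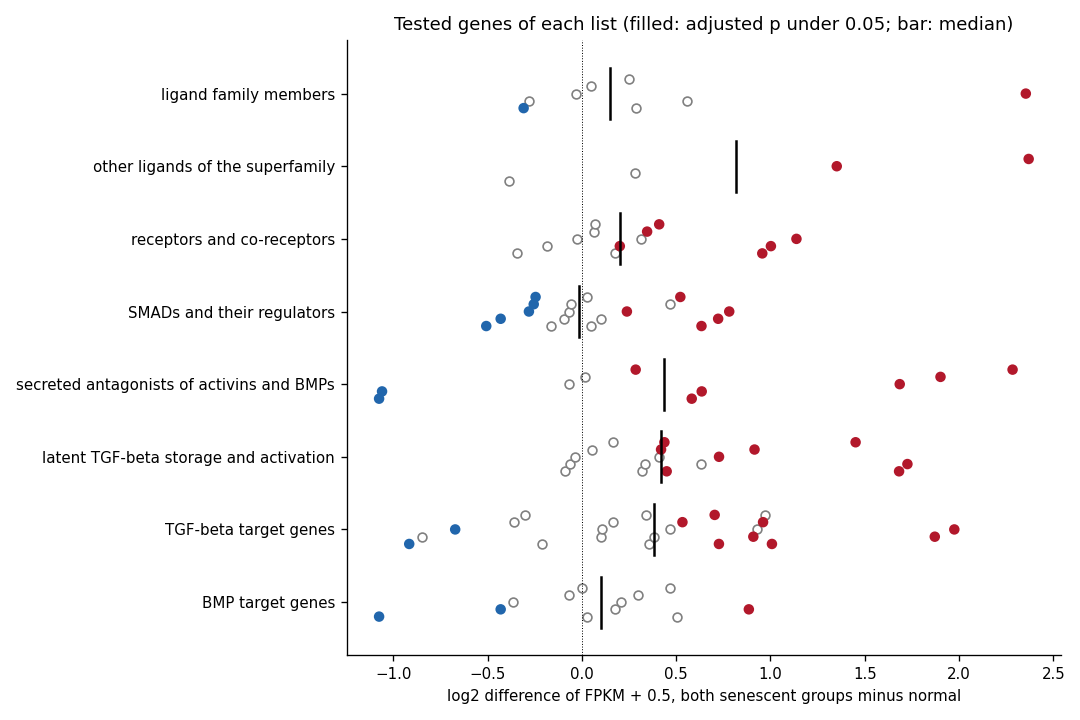
Log2 difference of FPKM + 0.5 for both senescent groups minus normal (horizontal axis), 1 point per tested gene, by list (rows). Filled points have an adjusted p under 0.05, red higher and blue lower, and black bars are list medians. Receptors and latency genes hold filled points to the right only, at 6 of 13 and 8 of 17, beside 23.9% of all tested genes.

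Target genes of TGF-beta had 8 of 23 tested higher, 2 lower and a median of 0.38, and target genes of BMPs 1 of 12 higher, 2 lower and a median of 0.10. Beside them stand 23.9% higher and 29.9% lower over all tested genes. Those TGF-beta targets that rose most were IGFBP3, a binding protein of insulin-like growth factors, by 1.98 (limma adjusted p = 0.000463), COMP, a matrix glycoprotein, by 1.87 (limma adjusted p = 4.55e-05), FN1, fibronectin, by 1.01 (limma adjusted p = 0.00058), and CTGF, a matricellular protein, by 0.96 (limma adjusted p = 0.00264). The 2 that fell, named after their values were seen, were TPM1, a tropomyosin (−0.92), and ADAM19, a metalloprotease (−0.67). Among BMP targets ID2, an inhibitor of helix-loop-helix factors, rose by 0.89 (limma adjusted p = 0.000418) and NOG and SMAD9 fell, whereas ID1 and ID3 were not called, at 0.21 and 0.00. None of these lists had a gene called between PD-L1-positive and PD-L1-negative cells. Beside these counts, 9 of 14 dermal fibroblast markers rose and 0 fell, 3 of which (DCN, COL1A2 and FBN1) are also in the lists above, and all 8 proliferation genes fell, with a median of −2.28. Of 7 tested pericyte and smooth muscle markers, 4 fell (CSPG4, MCAM, DES and RGS5) and 2 rose (NOTCH3 and ABCC9), and their summed level was 45.9 to 47.4 FPKM in PD-L1-positive and 40.1 to 45.2 in PD-L1-negative cells, against 76.1 to 78.1 in normal cells. Among tested markers of the other cell types, CD68, PMEL and MITF rose by 0.85, 1.02 and 0.60 (limma adjusted p = 8.43e-05, 0.00143 and 0.0144). KRT10 and TEK fell, at −0.36 and −0.58 (limma adjusted p = 0.00904 and 0.0438), and CD14 was not called. The part of any of these in the differences was not tested.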

How the data were processed

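Messenger RNA of 9 libraries of 1 fibroblast line was measured, 3 in each of 3 groups taken from the sample titles. The authors deposited FPKM values for 52741 RefSeq transcripts, with no header, label or note naming the program that made them. Tools named in the submitters' processing notes, with no role given, are the aligner STAR (2.5.2a), the counter HTSeq (0.11.2) and DESeq2 (1.22.2), with build hg19. Transcripts were summed per gene symbol, so genes with several transcripts depend on how reads were divided. FPKM are not counts, so no count test was run. A share scaled to depth also moves when other genes take more of a library.

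Genes whose mean FPKM reached 0.5 entered a fit by limma (version 3.58.1, R 4.3.3) of log2(FPKM + 0.5), all 9 libraries and 3 groups together, with 6 residual degrees of freedom, an intensity trend and Benjamini-Hochberg adjustment. The scripts were tested on simulated data. The pseudocount makes log2 differences of low genes too small. Depth came from 7209 genes with 1 transcript of 1500 to 6000 bases, whose lengths are from a GRCh38 annotation. Sequences are from RefSeq for GRCh38.p14, not the files' build. Tables and plots used Python 3.11.15, numpy 2.4.6, pandas 2.3.3 and matplotlib 3.10.9.

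The genes and lists were chosen with earlier results of these data known. Besides the 10 genes, up to 4 called genes with the largest difference were named per list, and the 3 genes most like any called gene of the 10 with a log2 difference of at least 1. Another 22 settings were listed at the outset, covering pseudocount, filter, scaling, weights, replicate block, transcript choice and each library left out, and 1 was added after the data were seen. A deposited table of motif enrichment was not used, since it holds none of the 10 genes.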

Additional observations from a re-analysis of the deposited data

How the results depend on the processing

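GDF15 was called in each contrast with normal cells in all 23 alternatives, and TGFB1 in all 23 for both senescent groups minus normal. No called difference of the 10 genes changed sign. The number of the 10 genes called, 2 in each contrast with normal cells, was 1 for PD-L1-negative minus normal under median-of-ratios scaling, with only the libraries compared, and with only those and a replicate block, since TGFB1 lost its call there, and it was 1 for PD-L1-positive minus normal with sample weights. It was 3 in each contrast with normal cells when every gene above 0 was tested, which added BMP2. With 1 library left out at a time it ranged from 1 to 2 in these contrasts and from 2 to 3 for both senescent groups, where FST was called without normal replicate 3. Of the other named genes, TGFBR1 lost its call with scaling to an equal sum and with sample weights, SMURF2 and SMAD9 with sample weights, and TGIF1 in 13 alternatives. The cause was not tested. Scaling to an equal sum moved the median difference of all genes for both senescent groups by −0.11.

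The replicate numbers were not established as pairs, because deviations from the group means of same-numbered libraries correlated across genes at −0.0111 to 0.457, and not every library correlated best with its own number. Between the sorted fractions, same-numbered libraries correlated at 0.0942, 0.223 and 0.457 for replicates 1, 2 and 3. Libraries of different numbers correlated there at −0.307 to 0.141. With a replicate block 0 of the 10 genes were called between the fractions. With a replicate block, 4 of the 10 genes were called for both senescent groups minus normal, adding TGFB3 (0.56, limma adjusted p = 0.0255) and INHBA (−0.28, adjusted p = 0.0396), and 4 with only the libraries compared and a replicate block. For PD-L1-negative minus normal the block gave 3, adding TGFB3 (0.62, adjusted p = 0.0345), which was not called with only the libraries compared and the block, and for PD-L1-positive minus normal it gave 2. For both senescent groups minus normal, all genes called with the block numbered 7155, against 6865 without it.

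Differences that changed sign were all uncalled. For PD-L1-negative minus normal, TGFB2 was −0.063 with quantile normalization and −0.019 with an equal sum, INHBB −0.055 with sample weights and BMP4 −0.0025 with the highest transcript per gene. For PD-L1-positive minus normal, TGFB2 was −0.12 with quantile normalization and −0.032 with an equal sum, and BMP4 −0.022 with the highest transcript. For both senescent groups minus normal, TGFB2 was −0.094 and −0.026 under the same scalings, INHBB 0.012 with median-of-ratios scaling and BMP4 −0.012 with the highest transcript. For PD-L1-positive minus PD-L1-negative, TGFB1 was 0.014 with quantile normalization and 0.041 with sample weights, TGFB2 0.052 with sample weights and 0.047 with the highest transcript, INHBA −0.15 with sample weights, GDF15 −0.0052 with an equal sum and −0.0081 with sample weights, and BMP4 −0.020 with the highest transcript.

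With 1 library left out at a time, TGFB2 ranged from −0.21 to 0.36 for PD-L1-negative minus normal, −0.22 to 0.35 for PD-L1-positive and −0.22 to 0.35 for both senescent groups. BMP4 ranged from −0.075 to 0.37 for PD-L1-negative and −0.012 to 0.43 for both, INHBA from −0.58 to 0.0024 and FST from −0.044 to 0.44 for PD-L1-positive, and INHBB from −0.20 to 0.17 for both. Between the fractions the ranges were −0.092 to 0.032 for TGFB1, −0.19 to 0.15 for TGFB2, −0.49 to 0.18 for TGFB3, −0.28 to 0.31 for INHBA, −0.13 to 0.091 for GDF15 and −0.033 to 0.28 for BMP4. At an estimated 1 to 6 fragments, depth limits what can be said of BMP6.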

Other observations

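Replicate 3 was the highest library in each of the 3 groups for 4 of the 10 genes, TGFB1, TGFB3, INHBA and GDF15. Of all 12763 tested genes, 11% had this order. The groups were not compared for it, and nothing in the labels says what the replicate numbers share.

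INHA, the alpha subunit that turns activin subunits into inhibins, was under the minimum for testing and was picked after its values were seen. It was 0.678, 0.543 and 0.843 FPKM in PD-L1-positive cells and 0.373, 0.675 and 0.638 in PD-L1-negative cells, against 0.0421, 0.129 and 0.105 in normal cells. No senescent library overlapped a normal one, as for 21.5% of all tested genes with senescent cells higher. The normal values of INHA are near the floor, and the fragments behind them were not estimated. BMP1, which despite its name is a procollagen-processing protease and no ligand, was also picked after its values were seen. As a gene of the latent TGF-beta storage and activation list, BMP1 is already among those counted higher there. It averaged 39.1 ± 3.42 FPKM in PD-L1-positive and 39.0 ± 3.47 in PD-L1-negative cells, against 28.8 ± 4.16 in normal cells (SD, n = 3 each), a log2 difference of 0.44 for both senescent groups minus normal (limma adjusted p = 0.00681).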
